A study of Rattus norvegicus with 54 samples.

Results

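Male and female gubernacula of rat fetuses were compared at gestational day 18 (GD18), on 8 of the 54 arrays of the series. The 4 male arrays, called W18, each held the left gubernaculum of a single LE/wt fetus. The 4 female arrays, called F18, each held the gubernacula of both sides of a single LE/wt fetus, combined. LE/wt is the series' wildtype strain. The labels name no transgene, hormone or drug for either group. Sex is the labelled difference, and left organs against pooled sides comes with it. The 8 arrays were chosen by these labels alone. Another 11 arrays were of LE/wt males (W19 at GD19, W20L and W20R for left and right at GD20). A further 15 arrays were of LE/orl males (O18, O19, O20L and O20R), a strain with inherited cryptorchidism. Levels in both sets are given for context, and both sets also entered the estimate of spread in the test. The left and right organs of GD20 came partly from the same fetuses, so these counts are arrays and not fetuses. The test treated these arrays as independent.

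The gubernaculum is a cord of mesenchyme with a rim of striated muscle that joins the fetal gonad to the inguinal abdominal wall. In male rodents it swells and shortens late in gestation under Insl3 from the fetal testis, with androgen acting as well, and this draws the testis down to the groin. In females the same cord stays thin and long and later becomes the ligaments of the ovary and uterus. Mesenchymal growth factors, matrix turnover and the growth of the muscle rim are the processes usually studied in it.

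Levels are the authors' log2 values, so a difference of 1 is a 2-fold difference, and each is given as W18 minus F18. Replicates are listed in the order A to D. The test was limma over all 34 gubernaculum arrays, and a feature (a gene, or a probe set with no gene name here) was called when its Benjamini-Hochberg adjusted p was under 0.05. Of 8711 features, 2074 were called higher in males (23.8%) and 2554 lower (29.3%), or 53.1% in all. Among the 2821 named genes 65.7% were called, 31.8% higher and 33.9% lower, and the male and female arrays did not overlap for 69.1%. A share near these values therefore says nothing particular about a group of genes. Every gene name came from lists that the authors selected on other contrasts of these arrays, most of which involve W18, so named genes were not a neutral sample. All RNA is from whole tissue, in which fewer cells of a type and less RNA per cell cannot be told apart.

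The male and female arrays also differed in controls that are no rat genes. The mean of the poly-A spike-in probe sets, bacterial RNAs added before labelling, was 4.93 ± 0.14 in W18 and 6.92 ± 0.52 in F18 (SD, n = 4 each), with no overlap (exact two-sided permutation test, p = 0.0286, the smallest that 4 against 4 allows). In the other male groups this mean ranged from 4.66 in O20L to 5.99 in W20L, and W19 at 5.14 was the LE/wt group nearest to W18. GAPDH signal at the 5′ end minus the 3′ end was −2.61 ± 0.19 in W18 and −3.64 ± 0.34 in F18, without overlap, whereas the same measure for actin was −5.16 in W18 and −5.19 in F18. Sex and the handling of these array sets cannot be told apart. The part of the spike-in difference in the results was not tested beyond a fit that carried the spike-in mean as a covariate. The slope of that fit came from spike-in differences within groups over the 34 arrays. Furthest from their group means were LE/orl arrays O19 D (6.58, group mean 5.28) and O18 A (5.83, group mean 5.09). Values with the covariate carry that slope over the gap between W18 and F18 and are descriptions only. Correlations between arrays lay between 0.953 and 0.986 within W18, between 0.967 and 0.984 within F18 and between 0.840 and 0.901 across the sexes. Fibroblast genes had a list mean of 11.51 to 11.85 in males and 11.37 to 11.60 in females, and muscle genes were present on all 8 arrays, but no gene specific to the gubernaculum was among the names. Leading genes are also given in other male groups. Of the 4628 called features, the W19 mean was nearer the W18 than the F18 mean for 95.5%. The share was 34.1% for W20L, 31.6% for W20R and 36.8% to 44.2% for the LE/orl groups. Most called features therefore put these groups nearer the GD18 females. A processing batch shared by the W18 and W19 arrays is possible, and its part in the W19 share was not tested. All 15 LE/wt male arrays lay above every female array for 264 named genes (9.36%) and below for 295 (10.5%). All 30 male arrays of both strains lay above for 65 (2.30%) and below for 87 (3.08%). The authors left LE/orl arrays O18 A and O19 D out of their means, and without these 2 the counts were 93 and 124.

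**Figure D1:**
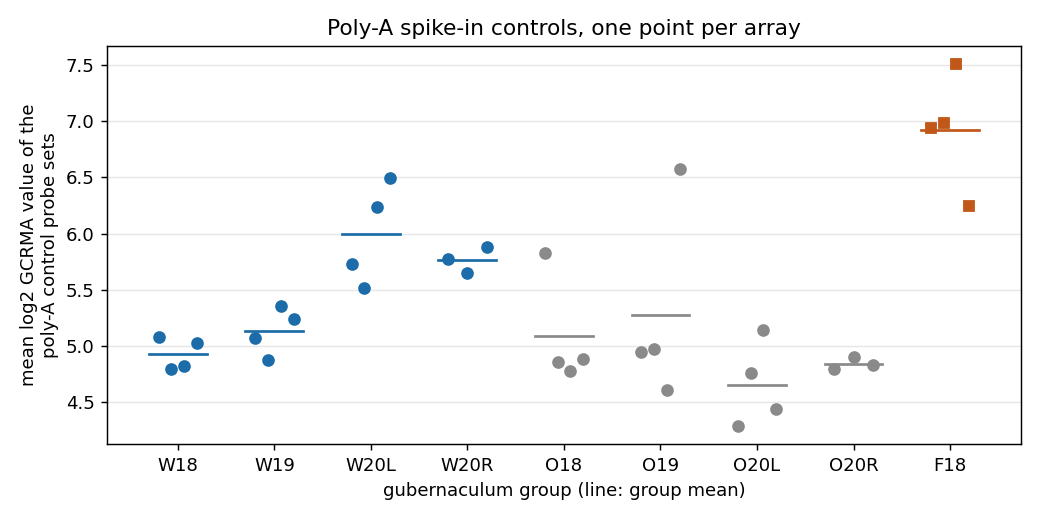
Mean log2 value of the poly-A spike-in control probe sets in each of the 34 gubernaculum arrays (points), by group, with the group mean as a line. The 4 female arrays lie between 6.24 and 7.51 and the 4 W18 arrays between 4.80 and 5.08.

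Promoter sequences were searched for genes taken by the naming rule, which is given with the processing. Of these, 13 were above every female in all 30 male arrays and had a RefSeq promoter. Genes described last, chosen after their values were seen, were not among them. The 3 whose window held a TATA box or a steroid receptor motif are shown, because their male excess held on every male array. The windows are the 250 bases before the RefSeq start of the gene in GRCr8, read 5′ to 3′ along the gene, all on the minus strand. Capitals mark TATAAA or AGAACA on either strand, so that AGAACA appears as TGTTCT where it lies on the other strand. Cited1 lies at chrX:71395024-71395273, with TATAAA beginning at position −65 from the start. Ghr lies at chr2:54432076-54432325, with the receptor motif at −93. Myf6 lies at chr7:44701314-44701563, with the receptor motif at −159 and TATAAA at −71.
Cited1: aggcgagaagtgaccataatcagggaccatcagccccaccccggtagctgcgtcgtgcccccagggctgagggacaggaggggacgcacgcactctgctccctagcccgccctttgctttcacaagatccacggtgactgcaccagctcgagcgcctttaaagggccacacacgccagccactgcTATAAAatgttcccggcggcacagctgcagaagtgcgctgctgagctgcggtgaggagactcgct
Ghr: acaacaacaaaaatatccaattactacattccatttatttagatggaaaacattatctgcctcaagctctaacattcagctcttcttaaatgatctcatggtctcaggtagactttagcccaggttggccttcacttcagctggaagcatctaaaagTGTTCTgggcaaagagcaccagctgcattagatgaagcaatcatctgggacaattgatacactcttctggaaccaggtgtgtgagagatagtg
Myf6: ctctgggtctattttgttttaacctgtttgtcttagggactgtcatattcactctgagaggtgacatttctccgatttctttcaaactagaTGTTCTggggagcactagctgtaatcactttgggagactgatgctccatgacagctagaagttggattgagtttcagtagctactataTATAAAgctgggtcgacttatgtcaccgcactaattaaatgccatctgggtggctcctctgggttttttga
AGAACA is the core bound by androgen and glucocorticoid receptors. It was present in 13.0% of the 46 promoters found for the rule's genes called higher in males. Of the 43 found for those called lower it was present in 11.6%. Its share was 10.6% of the 2172 found for all tested named genes and 17.1% of all 27457 promoters. In the same order TATAAA was present in 10.9%, 6.98%, 6.86% and 13.1%, and the E-box CANNTG, bound by myogenic factors among others, in 67.4%, 51.2%, 54.3% and 65.2%. These shares are descriptions and say nothing about binding.

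The genes with a large excess in males had varied roles. Cited1, a transcriptional co-regulator, measured 8.54, 8.16, 8.42 and 7.96 in males, against 3.93, 4.15, 4.25 and 4.17 in females (difference 4.14 ± 0.37, SE, adjusted p = 6.27e-10). Its LE/orl levels were lower than those of LE/wt males, with 5.44 in O18, yet every male array exceeded every female array. Pde10a, a cyclic nucleotide phosphodiesterase, measured 7.58, 7.99, 7.61 and 7.71 in males, against 4.18, 3.84, 3.86 and 3.87 in females (difference 3.79 ± 0.23, adjusted p = 1.01e-12). The lowest of the 30 male arrays stood at 6.68, well above the highest female.

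Xdh, the xanthine dehydrogenase of purine breakdown, averaged 9.44 ± 0.18 in males and 5.56 ± 0.75 in females (SD, n = 4 each), a difference of 3.88 ± 0.29 (SE). Pnoc, the precursor of the neuropeptide nociceptin, averaged 12.16 ± 0.32 in males and 8.51 ± 0.67 in females. The closest arrays of Pnoc over all males and females differed by 0.05 only. Igfbp2, a secreted binding protein of insulin-like growth factors, measured 10.91, 11.19, 11.21 and 11.12 in males, against 8.10, 8.22, 8.28 and 7.79 in females. It was as high or higher at GD19 (11.99) and GD20 (12.29 on the left). Thy1, a surface glycoprotein of fibroblasts and neurons, averaged 7.01 ± 0.37 in males and 3.76 ± 0.58 in females, and Thbs4, a thrombospondin of tendon and muscle matrix, 9.74 ± 0.43 in males and 6.87 ± 1.13 in females. Klf9, a transcription factor induced by glucocorticoid and thyroid hormone in other settings, measured 7.20, 7.99, 7.24 and 7.44 in males, against 4.36, 4.50, 4.46 and 4.63 in females (difference 2.98 ± 0.46, adjusted p = 4.06e-06). With the spike-in mean as a covariate the Klf9 difference was 1.16 (adjusted p = 0.120) and no longer called. These 8 of the 14 genes given from the upper end had all 30 male arrays above every female array.

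The other 6 of the 14 were high in GD18 and GD19 LE/wt males but not in every other male group. Selenow, a small selenoprotein abundant in muscle, had the largest excess of the genes given here, 4.62 ± 0.53. It measured 7.88, 8.47, 8.89 and 8.41 in males, against 3.70, 5.16, 3.28 and 3.05 in females, while O18 averaged 3.85, close to females. Bmyc, a relative of Myc, averaged 7.40 in W19 but 4.02 in W20L, beside 7.26 ± 0.57 in W18 and 3.98 ± 0.23 in F18. Cenpm and Pimreg, which act at the centromere and in mitosis, averaged 7.16 ± 0.24 and 7.84 ± 0.44 in W18 and 3.83 ± 0.06 and 4.73 ± 0.39 in F18, and 4.98 and 5.42 in W20L. MGC109145, listed with no further annotation here, averaged 8.70 ± 0.93 in W18 and 5.54 ± 0.23 in F18. Rdx, a linker of membrane and actin, averaged 8.55 ± 0.24 in W18 and 5.40 ± 0.53 in F18, 6.61 in W20L and 10.93 in O18. Its difference of 3.15 became −0.55 (adjusted p = 0.704) with the spike-in covariate.

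**Figure D2:**
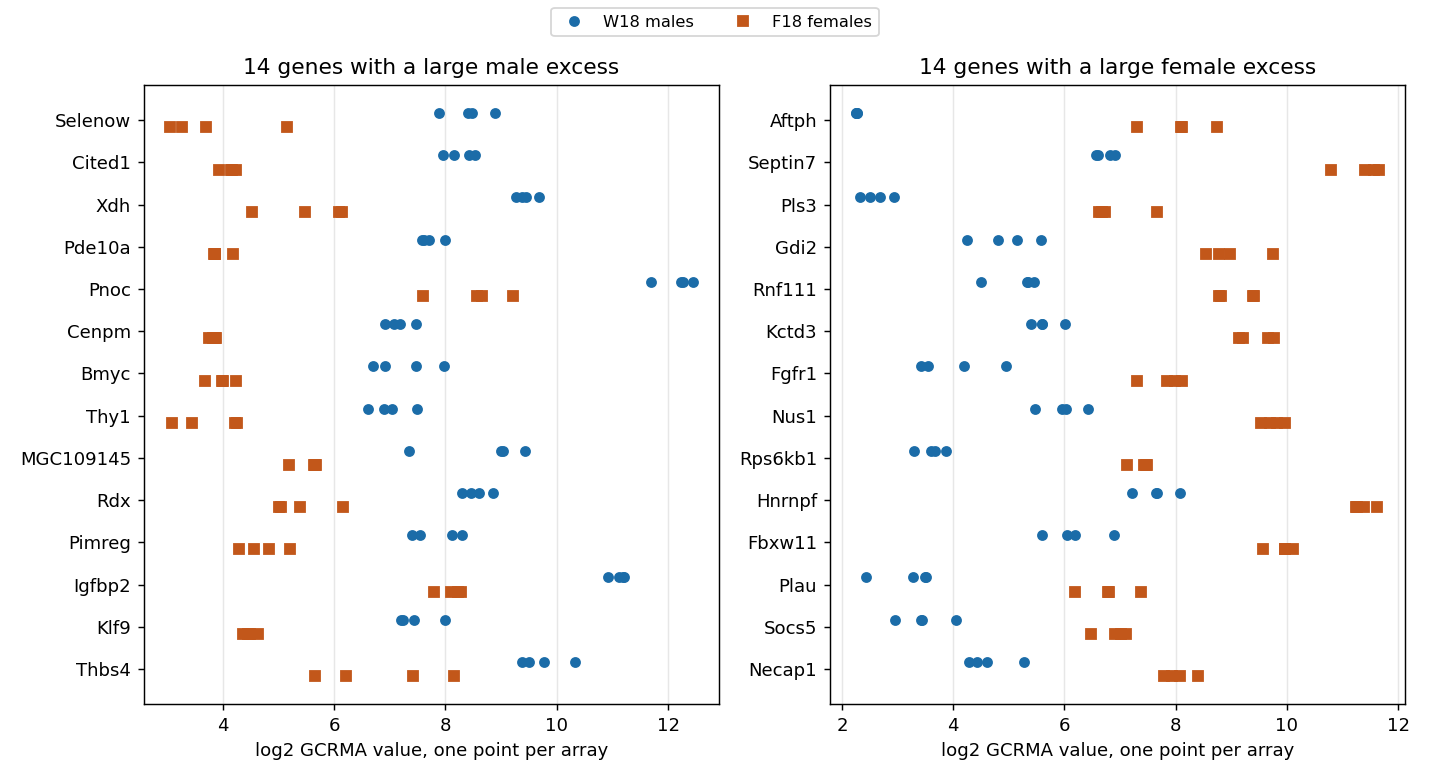
Log2 values of 14 named genes with a large male excess (left) and 14 with a large female excess (right), with 4 W18 arrays (circles) above 4 F18 arrays (squares) for each gene. The sexes do not overlap for any of these genes, which was a condition for entering the plot.

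The genes with the largest deficits in males also had varied roles, among them membrane traffic, the cytoskeleton and protein turnover. Aftph, which helps sort clathrin-coated vesicles, measured 2.25, 2.25, 2.27 and 2.28 in males, against 8.10, 7.31, 8.11 and 8.74 in females (difference −5.80 ± 0.54, adjusted p = 1.26e-09). The male values lie at the background of the arrays, so the size of this difference is uncertain. Septin7, a filament-forming septin, measured 6.57, 6.91, 6.82 and 6.61 in males, against 11.65, 10.80, 11.40 and 11.57 in females (difference −4.63 ± 0.64, adjusted p = 8.97e-07). At GD20 male left gubernacula averaged 6.31 for Aftph and 9.84 for Septin7, so both were closer to females than to W18 there. Pls3, an X-linked actin-bundling plastin, measured 2.69, 2.93, 2.32 and 2.50 in males, against 6.73, 7.67, 6.68 and 6.63 in females (difference −4.31 ± 0.45, adjusted p = 7.55e-09). Socs5, a suppressor of cytokine signalling, measured 4.06, 3.42, 2.95 and 3.45 in males, against 6.49, 7.11, 6.90 and 7.01 in females (difference −3.41 ± 0.31, adjusted p = 1.11e-09). Pls3 and Socs5 were the 2 genes of the 14 at the lower end for which all 30 male arrays lay below every female array. Their means were 2.56 and 3.35 in W19, close to W18, but 6.12 and 5.22 in W20L, nearer to F18. Kctd3 was the third for which all 15 LE/wt male arrays did so, at 5.65 ± 0.26 in W18 and 9.45 ± 0.31 in F18.

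The remaining 9 genes of this set had W20L means within 0.50 of the F18 mean. They included Gdi2, which recycles Rab GTPases, at 4.95 ± 0.56 in W18 and 9.02 ± 0.52 in F18, with 8.90 in W20L. Fbxw11, a ubiquitin ligase subunit, averaged 6.18 ± 0.54 in W18 and 9.91 ± 0.23 in F18, and Rnf111, a ubiquitin ligase acting on Tgfb signalling, 5.16 ± 0.44 in males and 9.10 ± 0.35 in females. Nus1, of the enzyme that makes dolichol, differed by −3.78 ± 0.21 and reached 9.73 in W20L and 9.89 in O18, the female level. Rps6kb1, the S6 kinase of growth signalling, averaged 3.61 ± 0.24 in W18 and 7.38 ± 0.17 in F18. Hnrnpf, an RNA-binding splicing regulator, averaged 7.65 ± 0.36 in males and 11.38 ± 0.17 in females, and Necap1, of clathrin-mediated endocytosis, 4.65 ± 0.44 in males and 8.05 ± 0.26 in females. With the spike-in covariate the differences of Gdi2 and of Fgfr1 were −1.78 (adjusted p = 0.105) and −1.79 (adjusted p = 0.0870), neither called.

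**Figure D3:**
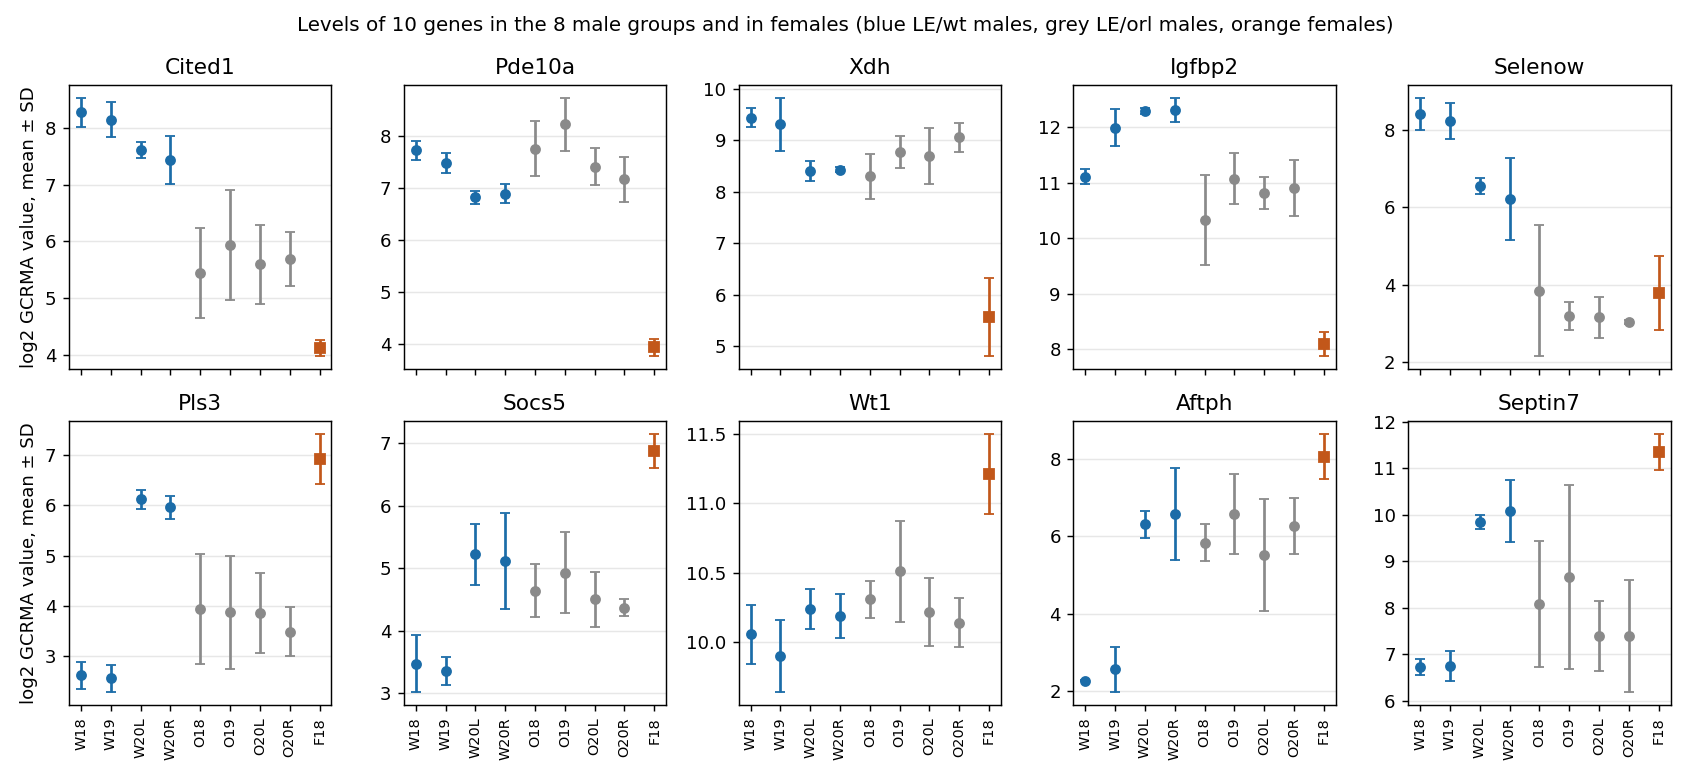
Mean log2 value ± SD of 10 genes in the male groups W18 to O20R and in F18 (n = 4 per group, 3 in W20R and O20R). Cited1, Pde10a, Xdh and Igfbp2 are above females and Pls3, Socs5 and Wt1 below in every male group mean, and Selenow, Aftph, Septin7, Pls3 and Socs5 in W19 are close to W18 and in W20L lie between W18 and females.

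Wnt genes differed in both directions. Of 10 tested members 4 were higher in males, 5 lower and 1 not called (median difference −0.44, against 0.02 over all named genes). Wnt4, a ligand of female gonad and duct development, measured 11.10, 11.44, 11.70 and 11.24 in males, against 9.05, 8.30, 9.73 and 9.36 in females (difference 2.26 ± 0.44, adjusted p = 8.95e-05). Its level in W20L was 8.24, and with the spike-in covariate the difference was 0.69 (adjusted p = 0.368). Tcf7, a transcription factor that acts at Wnt targets, averaged 8.12 ± 0.15 in males and 6.11 ± 0.15 in females, with all 30 male arrays above every female array, but its covariate-adjusted difference was 0.21 (adjusted p = 0.802). The secreted Wnt modulator Sfrp2 measured 7.97, 8.72, 8.20 and 8.55 in males, against 11.35, 11.50, 11.02 and 10.88 in females (difference −2.83 ± 0.24, adjusted p = 3.17e-10). All 15 LE/wt male arrays lay below every female for Sfrp2, whereas O18 averaged 11.07. Axin1, a scaffold of the complex that degrades beta-catenin, averaged 7.62 ± 0.21 in males and 9.32 ± 0.18 in females.

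Among Bmp, Tgfb and activin genes 4 of 11 were higher in males, 3 lower and 4 not called (median 0.45). The ligand Bmp7 measured 8.30, 8.28, 8.51 and 8.31 in males, against 6.77, 7.11, 7.00 and 6.98 in females (difference 1.38 ± 0.18, adjusted p = 4.41e-07). Its level in W20L was 7.07. The ligand Tgfb2 measured 8.40, 8.84, 8.56 and 8.57 in males, against 10.03, 10.12, 9.74 and 10.01 in females (difference −1.38 ± 0.19, adjusted p = 5.32e-07). A second Tgfb2 probe set differed by −2.51. Ltbp1, which holds latent Tgfb in the matrix, averaged 9.33 ± 0.25 in males and 10.74 ± 0.04 in females. For Tgfb2 and Ltbp1 all 30 male arrays lay below every female. Smad2, a signal carrier of Tgfb receptors, averaged 9.03 ± 0.15 in males and 9.89 ± 0.13 in females, and was not called with the spike-in covariate (−0.25, adjusted p = 0.432).

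In the Fgf, Egf, Igf and Pdgf list 5 of 19 were higher in males, 7 lower and 7 not called (median −0.14). Genes of the Igf side went both ways, with Igf1, Igfbp2, Igfbp5 and Igfbp7 called higher, Igf2r and Grb10 lower and Igfbp6 not called, while Igfbp3 had probe sets called at −0.64 and 1.16. Igf1, the growth factor itself, measured 13.00, 13.27, 12.87 and 12.79 in males, against 10.67, 10.72, 10.98 and 11.08 in females (difference 2.12 ± 0.24, adjusted p = 3.9e-08). Its level was 12.92 in W19, 12.24 in O18 and 10.90 in W20L, the last within the range of the GD18 females. No females were measured at GD20, so a sex difference there was not tested. Fgf9, Fgfr1 and Fgfr2 were lower. Spry1, a feedback inhibitor of receptor tyrosine kinases, measured 5.94, 6.73, 6.30 and 5.92 in males, against 9.03, 8.87, 8.86 and 8.87 in females (difference −2.68 ± 0.18, adjusted p = 2.4e-12). The receptor Fgfr1 averaged 4.02 ± 0.70 in males and 7.81 ± 0.36 in females, and the ligand Fgf9 3.90 ± 0.33 in males and 5.98 ± 0.54 in females, near background in males. All 15 LE/wt male arrays were below every female for Spry1 and Fgf9.

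Of 4 Notch and hedgehog genes the ligand Jag1 was higher in males (6.94 ± 0.38 in males against 4.31 ± 0.78 in females), and the receptors Notch1 (7.08 ± 0.65 in males against 8.21 ± 0.61 in females, with overlapping arrays) and Notch2 (10.22 ± 0.33 in males against 11.58 ± 0.48 in females) were lower. Notch1 was not called in the fit of the 8 arrays with the replicate letter as a block. Gli2, a hedgehog transcription factor, was not called, with 6.65 ± 0.24 in males and 6.50 ± 0.23 in females. The Jag1 difference of 2.62 was −0.12 (adjusted p = 0.922) with the spike-in covariate.

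Of 11 genes of hormone receptors and steroid metabolism 4 were higher in males, 3 lower and 4 not called (median 0.47). Ramp1, the partner that makes the receptor for the peptide CGRP, measured 7.84, 7.75, 7.70 and 7.47 in males, against 5.98, 6.64, 6.28 and 6.01 in females (difference 1.47 ± 0.33, adjusted p = 0.000519). CGRP has been proposed as the transmitter of the genitofemoral nerve in rodent testicular descent. Ramp1 was above every female in all 15 LE/wt male arrays and reached 8.99 in W19 and 8.75 in W20L, but was 5.97 in O18. Ghr, the growth hormone receptor, measured 6.07, 6.66, 7.12 and 6.50 in males, against 5.02, 4.90, 4.99 and 5.01 in females (difference 1.61 ± 0.31, adjusted p = 8.03e-05), and all 30 male arrays lay above every female. Its difference was 1.00 (adjusted p = 0.0954) with the spike-in covariate. Rxra, the retinoid X receptor that pairs with other nuclear receptors, averaged 6.59 ± 0.40 in males and 8.22 ± 0.19 in females. Hsd17b4, a peroxisomal enzyme that also acts on steroids, averaged 8.70 ± 0.15 in males and 9.74 ± 0.07 in females.

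Transcription factors that pattern the urogenital tract and limb included genes with large differences in either direction. Of 8 tested, 4 were higher, 3 lower and 1 was not called (median 0.61), and the mean of the 8 lay between 8.65 and 8.82 in males and between 7.82 and 8.09 in females, without overlap. That mean includes Cited1, whose difference of 4.14 was the largest of the list, and it was not computed without Cited1. Besides Cited1, Msx1, a homeobox factor of limb and craniofacial mesenchyme, measured 7.48, 7.27, 7.30 and 7.48 in males, against 5.13, 4.80, 5.87 and 5.41 in females (difference 2.08 ± 0.30, adjusted p = 2.01e-06). The level in O18 was 8.01, and all 30 male arrays exceeded every female. Prrx2, a homeobox factor of limb mesenchyme, averaged 7.79 ± 0.29 in males and 5.55 ± 0.15 in females, but 5.29 in W20L. Wt1, a zinc-finger factor of gonad, kidney and mesothelium, measured 9.74, 10.18, 10.20 and 10.08 in males, against 11.26, 10.80, 11.47 and 11.32 in females (difference −1.16 ± 0.18, adjusted p = 3.4e-06). It was also the only tested marker of epithelium and mesothelium, of 19 listed. Wt1 was below every female in all 30 male arrays, though the nearest male and female arrays differed by only 0.0040, with group means between 9.90 and 10.24 in LE/wt males at GD19 and on the left at GD20.

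Muscle genes as a group did not separate the sexes at GD18. Of 29 sarcomere genes 10 were higher in males, 4 lower and 15 not called (34.5% and 13.8%, median 0.42). Their mean level was 9.46, 10.01, 9.76 and 9.82 in the male arrays, against 9.14, 10.36, 9.13 and 8.84 in the female arrays. Female B stood above every male, and the other females below every male. Without it 16 sarcomere genes were higher and 2 lower (median 0.75), beside 2026 higher and 2426 lower of all 8711 features. The same array was highest for the 16 genes of muscle energy and calcium handling (7.95, 8.54, 8.21 and 8.12 in males, against 7.69, 8.78, 7.59 and 7.33 in females), of which 7 were higher, 3 lower and 6 not called (median 0.25). Without female B 1 of these was lower and the median was 0.70, and without female D the median was −0.02. Among 9 myogenic regulators and membrane genes, 4 were higher, 2 lower and 3 not called, but 2 were higher without female C, without female D or in the fit of the 8 arrays alone.

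Some muscle genes were higher in males despite female B. Myf6, a myogenic determination factor, measured 6.39, 6.47, 6.69 and 6.52 in males, against 3.12, 5.42, 4.82 and 3.47 in females (difference 2.31 ± 0.35, adjusted p = 3.07e-06). All 30 male arrays exceeded every female, and the level was 8.41 in W20L. Tnni1, slow troponin I, measured 10.47, 11.15, 10.57 and 10.43 in males, against 8.25, 9.73, 8.33 and 8.07 in females (difference 2.06 ± 0.32, adjusted p = 3.91e-06), and a second probe set differed by 1.76. Myoz2, an anchor of the Z-disc, averaged 10.23 ± 0.34 in males and 7.92 ± 1.06 in females. Cox6a2, a cytochrome oxidase subunit of striated muscle, averaged 8.42 ± 0.31 in males and 5.92 ± 0.84 in females, and Art1, a muscle surface ADP-ribosyltransferase, 7.56 ± 0.29 in males and 6.12 ± 0.56 in females. All 15 LE/wt male arrays lay above every female for Tnni1, Myoz2, Cox6a2 and Art1. Cryab, a small chaperone of desmin filaments, averaged 8.16 ± 0.32 in males and 6.37 ± 0.81 in females. Sln, the calcium pump inhibitor sarcolipin, and Fabp3, a fatty acid carrier of muscle, were called higher by 1.86 and 1.18, but their male and female arrays overlapped.

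Other muscle genes were lower in males. Mybpc1, the slow myosin-binding protein C, measured 8.02, 9.30, 8.95 and 8.71 in males, against 10.16, 10.83, 10.33 and 10.25 in females (difference −1.65 ± 0.30, adjusted p = 3.65e-05). Klhl41, a stabiliser of sarcomeric proteins, averaged 8.30 ± 0.26 in males and 9.33 ± 0.52 in females. The W20L means were 11.14 for Mybpc1 and 10.97 for Klhl41. With the mean of the 4 LE/wt male groups set against F18, which spans GD18 to GD20, their differences were −0.15 and 0.53. In that setting 24 of the 29 sarcomere genes were called higher, beside 1865 of all 8711 features. Of 4 smooth muscle genes 2 were higher in males, 1 lower and 1 not called. Acta2, smooth muscle actin, averaged 6.70 ± 0.17 in males and 4.16 ± 0.24 in females, and Smtn, smoothelin, 7.65 ± 0.18 in males and 6.31 ± 0.72 in females. Tpm4, a cytoskeletal tropomyosin, averaged 6.52 ± 0.15 in males and 9.28 ± 0.32 in females, and its difference was −0.17 (adjusted p = 0.861) with the spike-in covariate. Tagln was not called, with 10.58 ± 0.67 in males and 10.07 ± 0.68 in females.

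**Figure D4:**
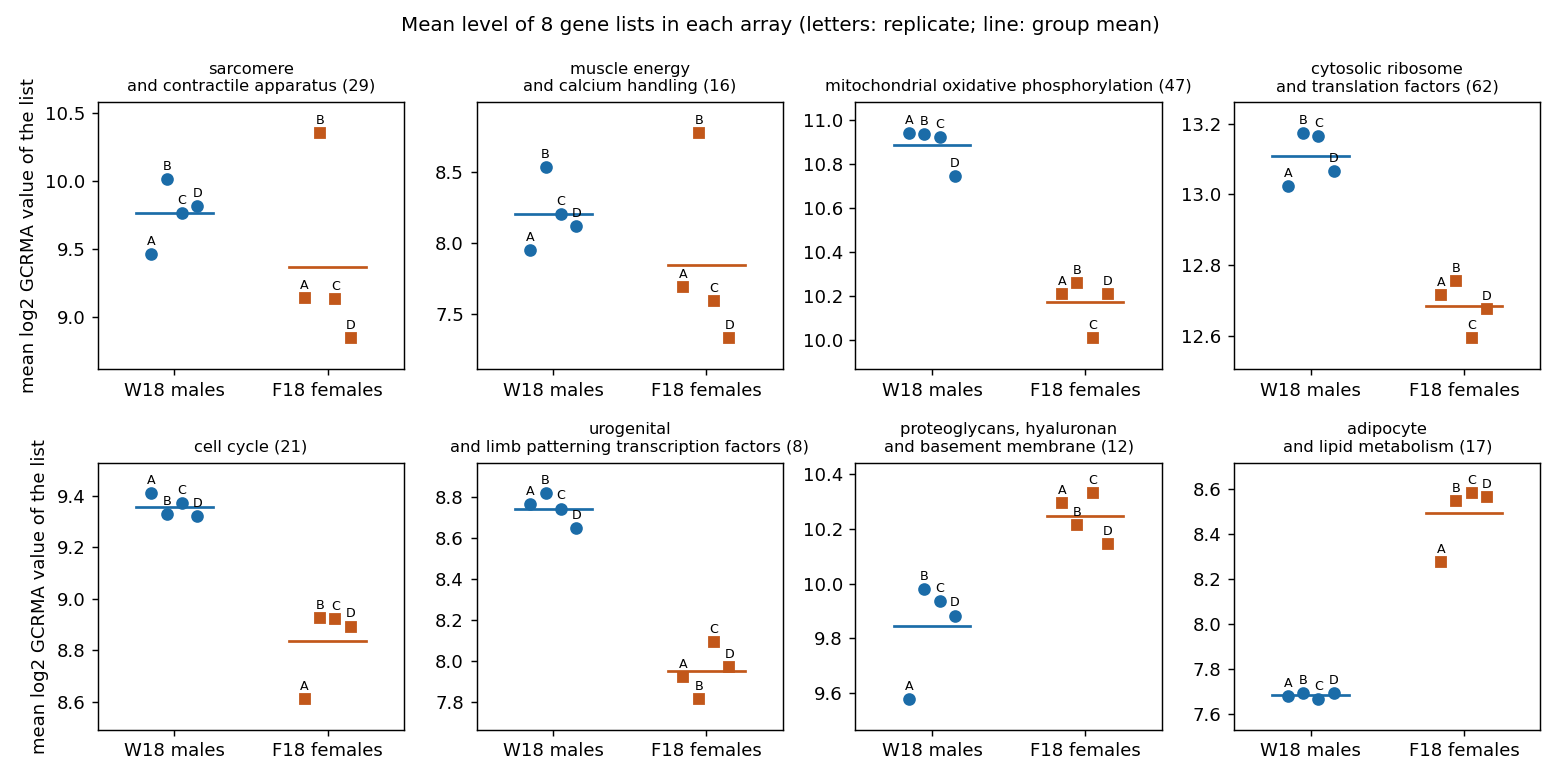
Mean log2 value of 8 gene lists in each male (circles) and female (squares) array, with replicate letters, the group mean as a line and the number of tested genes in brackets. Female B is above all other arrays for both muscle lists, while the other 6 lists separate the sexes.

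Matrix genes were called in both directions. Of 21 collagens and fibrous matrix genes 7 were higher in males, 5 lower and 9 not called (median 0.20, but −0.07 with the spike-in covariate). Fbln1, the elastic fibre protein fibulin 1, measured 10.81, 11.06, 11.36 and 11.06 in males, against 9.14, 9.24, 9.25 and 9.65 in females (difference 1.75 ± 0.27, adjusted p = 3.34e-06), and all 30 male arrays lay above every female. Loxl1, a cross-linker of elastin, averaged 9.74 ± 0.29 in males and 7.38 ± 0.24 in females. Col14a1, a fibril-associated collagen, averaged 10.41 ± 0.17 in males and 11.68 ± 0.33 in females. Col1a2, a chain of type I collagen, differed by −0.60. Col1a1, the other chain, had no settled direction: its brighter probe set differed by −1.50 and another by 3.16, both called. Across the 146 genes with several probe sets, 59 had more than 1 called, and 13 of these pointed opposite ways.

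Of 12 proteoglycan and basement membrane genes 3 were higher in males, 5 lower and 4 not called (median −0.41, but 0.11 for the mean of the 4 LE/wt male groups minus F18). Leaving out female A, C or D or male B or C left 1 called higher. The list mean was 9.58, 9.98, 9.94 and 9.88 in males, against 10.30, 10.22, 10.33 and 10.15 in females, with no overlap. Vcan, the hyaluronan-binding proteoglycan versican, was higher by 0.74 ± 0.16 in males, with all 15 LE/wt male arrays above every female, though its other 2 probe sets were not called (0.32 and 0.37). The syndecans Sdc1 (7.70 ± 0.16 in males against 8.55 ± 0.14 in females) and Sdc4 (8.20 ± 0.09 in males against 9.99 ± 0.49 in females) and the laminin chain Lamb1 (9.40 ± 0.30 in males against 10.61 ± 0.24 in females) were lower in males. The Sdc4 difference was not called with the spike-in covariate (−1.28, adjusted p = 0.0921).

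Matrix proteases and their inhibitors had the highest median of the gene lists, 1.02. Of 8 tested 5 were higher in males, 2 lower and 1 not called, and the list mean lay between 9.35 and 9.53 in males and between 8.78 and 8.96 in females. Timp1, an X-linked metalloproteinase inhibitor, measured 10.10, 9.75, 9.96 and 9.45 in males, against 7.36, 7.56, 7.32 and 7.57 in females (difference 2.36 ± 0.21, adjusted p = 7.54e-10). All 30 male arrays lay above every female. Serpinf1, the secreted serpin PEDF, averaged 12.19 ± 0.16 in males and 9.66 ± 0.17 in females, and Mmp23, a membrane metalloproteinase, 7.89 ± 0.22 in males and 5.81 ± 0.24 in females. Both were above every female in all 15 LE/wt male arrays. Plau, the urokinase that activates plasminogen, went the other way at 3.18 ± 0.51 in males and 6.79 ± 0.49 in females, with 6.86 in W20L.

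Genes of cell division, mitochondria and ribosomes were more often higher than lower in W18 males. Of 21 cell cycle genes 10 were higher (47.6%), 4 lower and 7 not called (median 0.36). The lower ones were Ccng2, Cdkn1a, Hmmr and Mcm5, and Top2a and Prim1 were among those not called. Bub1b, of the spindle checkpoint, measured 9.40, 9.26, 9.62 and 9.34 in males, against 6.32, 7.18, 7.37 and 7.15 in females (difference 2.40 ± 0.34, adjusted p = 1.01e-06). Cks2, a partner of cyclin-dependent kinases, averaged 9.40 ± 0.33 in males and 7.34 ± 0.50 in females, with all 30 male arrays above every female. Cdc20, the activator of the anaphase-promoting complex, averaged 9.67 ± 0.14 in males and 7.92 ± 0.31 in females, and Cdkn3, a phosphatase of cyclin-dependent kinases, 9.63 ± 0.36 in males and 7.48 ± 0.20 in females. Both were near the female level in W20L, at 8.20 and 7.73.

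Of 47 oxidative phosphorylation genes 23 were higher in males (48.9%), 4 lower and 20 not called (median 0.86). Ndufa11 and Ndufs7, subunits of complex I, averaged 10.81 ± 0.39 and 11.28 ± 0.45 in males and 8.41 ± 0.14 and 9.08 ± 0.14 in females, and Atp5po, of the ATP synthase stalk, 12.69 ± 0.22 in males and 11.00 ± 0.06 in females. All 15 LE/wt male arrays were above every female for 14 of the 47 genes, against 9.36% of all named genes. The mean of the list was 10.89 in W18 and 10.17 in F18. In the LE/orl male groups it was 9.20 to 9.45, below the females. Of 62 ribosome and translation genes 25 were higher (40.3%), 6 lower and 31 not called (median 0.38). Their mean was 13.11 in W18 and 12.69 in F18, but 11.85 to 11.95 in the LE/orl male groups, again below the females. Rps25 averaged 9.72 ± 0.16 in males and 7.00 ± 0.18 in females, Rpl29 12.76 ± 0.22 in males and 10.23 ± 0.32 in females, and Rpl41 13.99 ± 0.27 in males and 12.81 ± 0.11 in females, the last with all 30 male arrays above every female. The translation initiation helicase Eif4a1 was lower, at 8.65 ± 0.16 in males and 11.78 ± 0.34 in females. With the spike-in covariate, 46 ribosome genes and 36 oxidative phosphorylation genes were called higher in males, beside 1619 of all 8711 features. All features are not a like set, since named genes were called higher more often in the main fit (31.8% against 23.8%). The covariate fit was not run without LE/orl arrays O19 D and O18 A, which lay furthest from their group means in spike-in signal. These counts are therefore descriptions only.

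Genes of lipid and carbohydrate metabolism were more often lower than higher in males. Of 17 adipocyte and lipid genes 2 were higher, 11 lower (64.7%) and 4 not called, and the median of −1.15 was the lowest of the gene lists. Their mean was 7.68, 7.69, 7.67 and 7.69 in males, against 8.27, 8.55, 8.58 and 8.56 in females. Cd36, a fatty acid transporter, measured 7.67, 7.39, 5.91 and 6.89 in males, against 9.11, 9.67, 9.77 and 9.94 in females (difference −2.66 ± 0.29, adjusted p = 1.91e-08). Insig1, a brake on sterol synthesis, averaged 4.66 ± 0.21 in males and 6.85 ± 0.15 in females, and Acadl, of mitochondrial fatty acid oxidation, 9.54 ± 0.11 in males and 10.69 ± 0.27 in females. Dhcr7, the last enzyme of cholesterol synthesis, was higher at 8.07 ± 0.17 in males and 5.85 ± 0.17 in females. At GD20 left male gubernacula stood at 9.34 for Cd36, 7.11 for Insig1 and 10.78 for Acadl. All 15 LE/wt male arrays were below every female for 1 of the 17 genes, against 10.5% of all named genes.

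Of 16 glycolysis and hypoxia genes 3 were higher in males, 7 lower and 6 not called (median −0.17). Ldha, lactate dehydrogenase A, measured 11.18, 11.19, 11.32 and 11.19 in males, against 13.03, 12.93, 12.82 and 12.90 in females (difference −1.70 ± 0.20, adjusted p = 5.91e-08). It stood at 13.10 in W20L. Bnip3, a hypoxia-induced mitophagy receptor, averaged 8.52 ± 0.10 in males and 9.65 ± 0.15 in females, and was not called with the spike-in covariate (−0.58, adjusted p = 0.178). Aldoc, an aldolase, and Pdk1, a kinase that inhibits pyruvate dehydrogenase, were higher by 1.69 and 1.22.

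**Figure D5:**
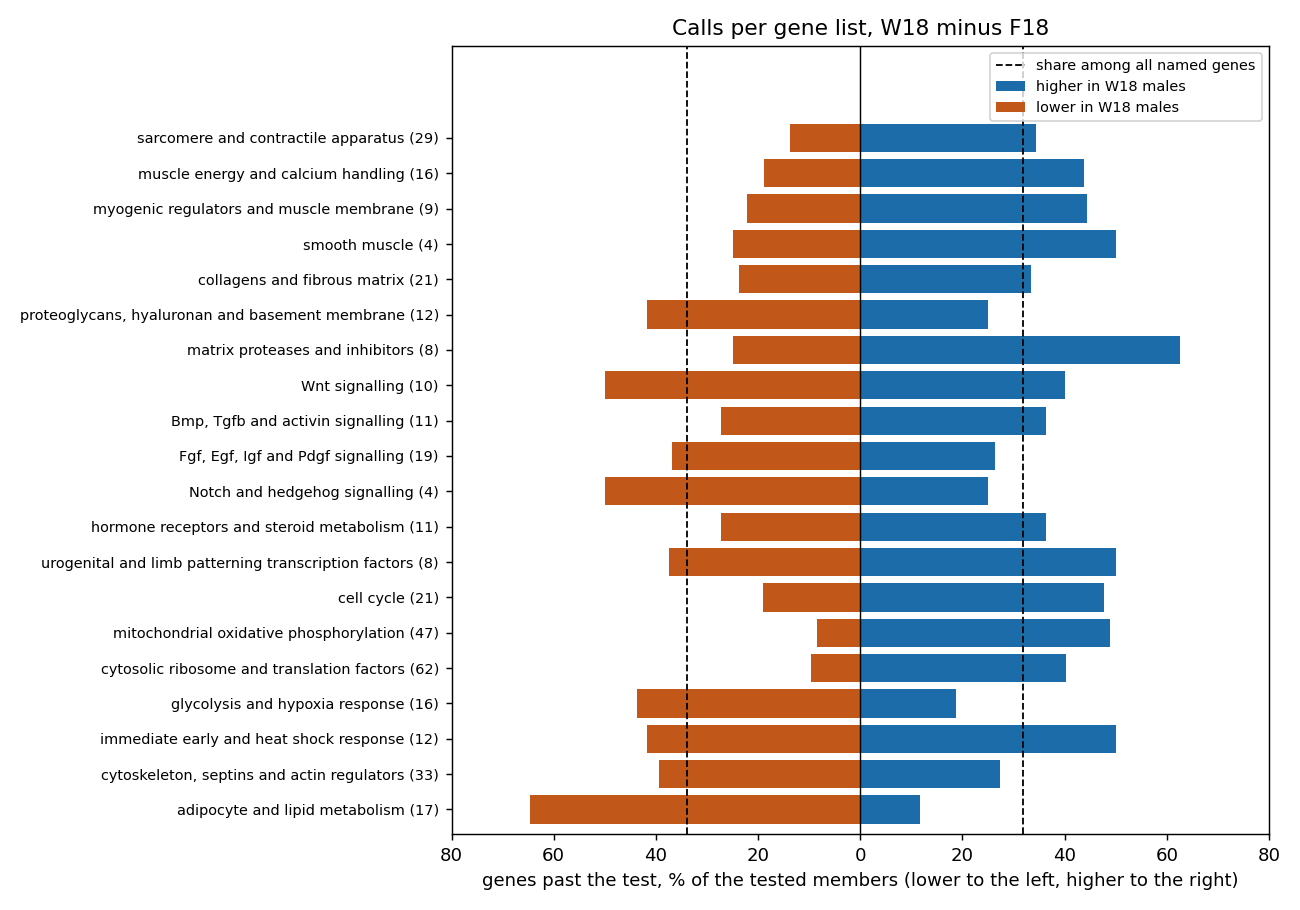
Share of the tested genes of each of 20 lists (number tested in brackets) called higher (right) or lower (left) in W18 than in F18, with the shares among all named genes, 31.8% and 33.9%, as dashed lines. Lipid metabolism extends furthest to the left at 64.7% and matrix proteases furthest to the right.

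Stress response genes were called in both directions, 6 of 12 higher, 5 lower and 1 not called (median 0.39). Hspb1, a small heat shock protein of muscle, averaged 11.32 ± 0.19 in males and 9.62 ± 0.48 in females. The larger chaperones were lower: Hsp90ab1 averaged 11.38 ± 0.22 in males and 13.76 ± 0.22 in females, Dnaja1 10.44 ± 0.15 in males and 11.83 ± 0.22 in females, and Hspd1, of mitochondria, 12.20 ± 0.20 in males and 13.30 ± 0.14 in females. All 30 male arrays lay below every female for Hspd1. Among 33 cytoskeleton genes 9 were higher, 13 lower and 11 not called (median −0.10, but 0.01 without female B). Besides Septin7, Pls3 and Rdx, Ezr, the ezrin that ties membrane to actin in epithelia, averaged 5.66 ± 0.09 in males and 8.63 ± 0.33 in females. Myl9, a regulatory myosin light chain, averaged 10.52 ± 0.06 in males and 8.38 ± 0.47 in females, and Vim, the mesenchymal filament vimentin, 13.49 ± 0.18 in males and 12.44 ± 0.14 in females.

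Markers of other cell types were few among the named genes, so a change in tissue makeup could be checked only in part. For nerve and Schwann cells 3 of 21 listed genes were tested, and their mean lay between 8.05 and 8.50 in males and between 6.98 and 7.51 in females. Uchl1, a neuronal deubiquitinase, averaged 9.56 ± 0.24 in males and 6.77 ± 0.47 in females, Stmn2 was higher by 0.57 with overlapping arrays (another probe set differed by −0.66 and was not called, and the call was lost without female A or male A, C or D), and Ngfr was not called, with 7.38 ± 0.41 in males and 7.61 ± 0.13 in females. For endothelium 4 of 20 were tested, with a mean of 7.83 to 8.50 in males and 7.90 to 8.05 in females. Cdh5, the vascular cadherin, averaged 7.07 ± 0.51 in males and 4.97 ± 0.33 in females, and Emcn 8.88 ± 0.43 in males and 8.09 ± 0.15 in females, while Lyve1, of lymphatic vessels and some macrophages, was lower at 6.71 ± 0.27 in males and 8.71 ± 0.21 in females. The Cdh5 and Emcn differences were not called with the spike-in covariate (1.23 and 0.64, adjusted p = 0.0918 and 0.268), and that of Emcn was not called without male B. For leukocytes 3 of 23 were tested, with a mean of 7.56 to 7.84 in males and 6.89 to 7.59 in females. Coro1a was lower, at 7.28 ± 0.22 in males and 8.28 ± 0.47 in females. C1qc and Cyba were not called, at 7.12 ± 0.66 and 8.76 ± 0.37 in males and 5.60 ± 0.58 and 7.65 ± 0.40 in females. Male and female arrays did not overlap for any of the 3, and their median difference was 1.11.

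Fetal red cell genes varied within the sexes. Car1, a carbonic anhydrase of fetal red cells, measured 10.31, 4.53, 5.92 and 7.75 in males, against 5.15, 6.38, 7.61 and 6.25 in females, and Hbe1, an embryonic globin, averaged 14.00 ± 0.54 in males and 14.07 ± 0.18 in females. Neither was called. Slc3a1, the only tested marker of gonad and kidney, averaged 3.89 ± 0.50 in males and 4.06 ± 0.53 in females, under the minimum signal in both. Fibroblast markers were mixed, with Thy1 and Dcn higher (Dcn by 0.44, with overlapping arrays), Col1a2 lower and Col1a1 without a settled direction, of 6 tested. Dcn was not called on leaving out female A, C or D or male B or C. No cartilage marker was tested. The part of these cell types in the gene groups above was not tested.

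Genes of the X chromosome were called in both directions. Of 87 tested X-linked genes 26 were higher in males (29.9%) and 34 lower (39.1%), against 31.6% and 33.8% of 2514 genes on other chromosomes, and no gene of the Y chromosome was tested. Of 4 dosage genes Eif2s3, a subunit of the factor that brings the initiator tRNA to the ribosome, measured 7.69, 8.07, 7.85 and 7.97 in males, against 10.15, 10.09, 9.82 and 10.01 in females (difference −2.13 ± 0.22, adjusted p = 7.77e-09). All 15 LE/wt male arrays lay below every female for it. Ddx3x, an RNA helicase, averaged 11.18 ± 0.12 in males and 13.16 ± 0.24 in females, but 12.72 in W20L. The mean of the 4 dosage genes was 8.57 in W18 and 9.63 in F18, but 9.58 in O18 males, near the female level. Kdm5c (6.58 ± 0.16 in males and 6.23 ± 0.23 in females) and Usp9x (8.64 ± 0.23 in males and 9.11 ± 0.24 in females) were not called, although a dimmer Usp9x probe set differed by −1.72 and was.

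Genes with all 30 male arrays on the same side of every female were also ranked by their W18 minus F18 difference, and from the 20 at each end some that are not described above are given here. This choice was made after their values were seen, so these genes are described without support from their test. Among those higher in males, Vegfd, an X-linked ligand for lymphatic growth, averaged 5.96 in W18 and 3.19 in F18, with 5.40 as the lowest male array and 3.44 as the highest female. Agtr2, the X-linked type 2 angiotensin receptor abundant in fetal mesenchyme, averaged 12.81 in W18 and 10.27 in F18, though a second probe set differed by 0.58 and was not called. Fos, an immediate early factor, averaged 6.14 in W18 and 3.50 in F18, and Adh1c, an alcohol dehydrogenase that also oxidises retinol, 6.91 in W18 and 4.37 in F18. Pdgfrl, a secreted receptor-like protein, averaged 7.80 in W18 and 5.38 in F18, and Nnat, an imprinted membrane protein, 11.28 in W18 and 9.01 in F18. Adh1c was separated by 0.02 only between its lowest male and highest female array.

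Those lower in males included secreted, surface and intracellular proteins. Gdf10 and Gdf11, ligands of the Tgfb family, averaged 7.54 and 7.01 in W18 and 9.65 and 8.98 in F18. Alcam, an adhesion molecule of the immunoglobulin family, averaged 9.14 in W18 and 11.36 in F18, Ntng1, an anchored netrin of axon guidance, 6.58 in W18 and 8.99 in F18, and Stc1, a secreted stanniocalcin, 6.64 in W18 and 9.00 in F18. The gap between the nearest male and female arrays was 0.92 for Gdf10 and for Ntng1, but 0.04 for Gdf11 and 0.02 for Stc1. Hdac5, a histone deacetylase, averaged 7.15 in W18 and 9.91 in F18, Cnksr3, an adaptor of sodium transport signalling, 5.09 in W18 and 8.12 in F18, and Slc40a1, the iron exporter ferroportin, 7.69 in W18 and 9.79 in F18.

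Among the other genes with all 30 male arrays on the same side of every female, the nearest male and female arrays were 0.03 apart for Rpl41, 0.04 for Hspd1, 0.06 for Msx1 and 0.09 for Timp1. Sizes are least certain where a group mean lay under the minimum log2 signal of 5. Of the 120 genes given by the naming rule this held for 24 in a single group, namely Selenow, Cited1, Pde10a, Cenpm, Bmyc, Thy1, Pimreg, Klf9, Jag1, Acta2, Myf6, Cdh5, Ghr and Fabp3 in females and Aftph, Pls3, Gdi2, Fgfr1, Rps6kb1, Plau, Socs5, Necap1, Insig1 and Fgf9 in males.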

How the data were processed

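Per the submitters' processing notes, the deposited log2 values come from GCRMA. The authors also deposited lists with linear intensity means. No source used here says which arrays were normalized together. Per the labels' protocols, organs were dissected after storage in RNAlater and 30 ng of RNA was amplified in 2 cycles. Of 15923 probe sets, 57 controls were left out. The authors' deposited intensity means for W18 and F18 matched the value table within 0.51 for 3589 of 3589 and 1023 of 1023 listed probe sets.

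Names came from the lists' symbols (3008 of 3922 listed probe sets carried a single symbol; 2066 current, 707 updated through synonyms of GRCr8, 235 kept), for 2844 genes. Each gene was represented by its probe set with the highest mean. Features needed a log2 value of 5 in at least 3 of 34 arrays. limma 3.58.1 in R 4.3.3 fitted 9 groups with no covariate and 25 residual degrees of freedom. The fit was tested on simulated data. Precision is limited by 4 arrays per group, and fetuses were separate animals per the labels.

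The rule named the 15 highest and 15 lowest log2 differences among called genes whose arrays did not overlap and whose higher mean was at least 5, up to 4 genes of each list by p-value, and all X-linked dosage genes. Of the genes it took, 5 are not reported here. Members and lists were chosen with earlier results of these data known.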

Additional observations from a re-analysis of the deposited data

Results flagged for a closer look

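In 18 of 240 groups of 4 arrays (the male and the female group of each of the 120 genes) a single array stood apart from the other 3 by Dixon's test, at the 95% level. Chance gives about 1 in 20. Of the 18, 6 were female A, 4 female B, 3 male A, 2 male B, 2 male C and 1 female C.

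Among W18 males, male A was high for Cdkn3 at 10.17 and low for Col1a2 at 13.00 and Rnf111 at 4.50. Male B was high for Fgf9 at 4.39 and Myoz2 at 10.73. Male C was high for Bmp7 at 8.51 and Ldha at 11.32.

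Among F18 females, female A was low for Cdc20 at 7.46, MGC109145 at 5.19, Rps6kb1 at 7.12 and Serpinf1 at 9.41, and high for Pde10a at 4.18 and Spry1 at 9.03. Female B was high for Pls3 at 7.67 and for the muscle genes Sln at 8.97 and Tnni1 at 9.73, and low for Ltbp1 at 10.67. Female C was high for Rxra at 8.50. Female B was also the array with the highest mean over the sarcomere genes.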

How the results depend on the processing

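The count of called features was 4628 (2074 higher in males, 2554 lower). Leaving out each array in turn gave 4173 to 4452 (1789 to 2026 higher, 2304 to 2426 lower). Without a minimum signal it was 9505 (6636 higher, 2869 lower), which includes features at background. A further requirement of a 2-fold difference left 2477 (1018 higher, 1459 lower). With the spike-in mean as a covariate, chosen after seeing the data, it was 3428 (1619 higher, 1809 lower). Replicate letters did not pair the samples: same-letter correlations of deviations were −0.27, 0.27, −0.27 and −0.07, and the fit of the 8 arrays with the letter as a replicate block called 4837, against 5147 without the block. The balance of directions turned with quantile normalization (2370 higher, 2241 lower) and with median centring (2345 higher, 2305 lower). The other alternatives gave 3815 to 5566.

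Of the 109 genes of the naming rule that were called, 84 kept direction and call under every alternative in which they were tested. Of the 109, 5 (Acta2, Fabp3, Fgf9, Pls3 and Socs5) were not tested with the minimum of 7, and 80 were tested and kept under all 24 alternatives. The spike-in covariate ended 19 of the calls. Besides those given above, Coro1a, Col1a1, Dcn, Fabp3 and Stmn2 lost theirs there. Dcn, Emcn and Stmn2 lost theirs also on leaving out an array, Dcn in the fit of the 8 arrays, and Stmn2 and Notch1 in that fit with the block. The sign changed for 20 values, and the cause was not tested. With the mean of the 4 LE/wt male groups these were Car1 (−0.87), Col1a2 (0.024), Emcn (−0.18), Gli2 (−0.38), Klhl41 (0.53), Ngfr (0.54) and Slc3a1 (0.96). With the spike-in covariate they were Gli2 (−0.80), Hbe1 (3.49), Jag1 (−0.12), Kdm5c (−0.74), Ramp2 (0.91) and Rdx (−0.55). Averaging all probe sets of a gene gave 0.83 for Col1a1 and −0.045 for Stmn2. Hbe1 became 0.017 with median centring and Slc3a1 0.45 with the control index of 5′ against 3′ signal as covariate. Leaving out each array in turn gave −0.26 to 0.16 for Hbe1, −0.28 to 1.65 for Car1 and −0.39 to 0.041 for Slc3a1.

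Left organs against pooled sides, 1 day, 1 strain and 4 fetuses a sex limit the comparison. Array signal near background limits the size of differences for genes under a log2 value of 5.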
